A study of Homo sapiens with 20 samples.

Results

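The genes RIMS2, SYBU, NRCAM, RALYL, SCRG1 and SERPINI1, known mostly from neurons and their secretion and adhesion, were followed in Mel202 cells treated with retinoids. These 6 genes were chosen because they were lower with retinoids in these same samples, so that difference is described here and was not tested. They are 6 of 10673 genes tested. Every probe listed with 1 of them was used, which gave 8 of the 47323 probes in the intensity table. NRCAM and SERPINI1 had 2 probes each and the other genes had 1. All 8 were among the 18269 probes with a detection p-value under 0.01 on at least 3 arrays, the rule for testing a probe, and a probe is called detected on an array when it met that value there. Some of the 8 met the rule mainly through the EtOH arrays, where they were high.

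Mel202 is a human uveal melanoma cell line that carries GNAQ Q209L and GNAQ R210K and is BRAF wild type. It was grown from a recurrent primary tumour that had been irradiated, and all groups share this background. Cells received 100 nM all-trans retinoic acid (ATRA), 100 nM 9-cis retinoic acid (9-cis RA) or the ethanol vehicle alone (EtOH) for 24 or 48 h, and RNA was measured on 20 Illumina BeadChips. Arrays whose titles carry the same number were taken as 1 sample by their mean, and a name such as replicate 2-3 gives the arrays in it. The labels do not say whether such arrays carried 1 RNA extract. Each time then had 2 samples with EtOH, 3 with ATRA and 2 with 9-cis RA. Whether these were separate cultures is not given in the labels, so the p-values cover the spread between samples and that spread may be technical.

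RIMS2 and SYBU act on the way to the synapse. RIMS2 is a scaffold of the presynaptic active zone that binds Rab3 on vesicles, and it also serves insulin secretion. SYBU (syntabulin) ties syntaxin cargo to a kinesin motor for transport along axons. NRCAM is an adhesion molecule of the L1 family that takes part in axon guidance and in the nodes of Ranvier. RALYL is an RNA-binding protein related to RALY. SCRG1 is a small secreted protein first known from scrapie-infected brain and later from differentiating cartilage. SERPINI1 (neuroserpin) is a secreted inhibitor of tissue plasminogen activator. Retinoic acid acts through receptors that bind DNA in pairs, mostly at repeats of a short half-site, and melanocytes share their origin in the neural crest with peripheral neurons and glia.

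By how many probes they detected, the arrays divided into set 1 (12 arrays, 15870 to 17128 probes) and set 2 (8 arrays, 12561 to 14301 probes), a division made after the data were seen. Set 1 held 2 arrays of every group, and set 2 held 2 of each ATRA group and 1 of each other group. The second principal component (19.2% of the variance) set replicate 4 of ATRA, at 24 h and at 48 h alike, away from the rest. These were the only samples made of a set 2 array alone, so that separation cannot be told apart from the array set. Of 8 melanocyte markers all 8 were detected on every array, so the cells carried the pigment cell genes of their label. Of 8 neuron markers 2 had a named probe: STMN2 was detected on 0 of 20 arrays and TUBB3 on 20 of 20. TUBB3 differed by -0.26 ± 0.11 between retinoids and EtOH (log2 difference ± SE, limma adjusted p = 0.0922), and it passed as lower without background correction (-0.24, adjusted p = 0.0475) and with equal array medians (-0.39, adjusted p = 0.0252). Among 7 astrocyte and oligodendrocyte markers 3 were named, and 2 were tested and both were lower with retinoids: OLIG2 by -0.85 ± 0.10 and SLC1A3, detected on 5 arrays, by -0.95 ± 0.10 (limma adjusted p = 6.28e-05 and 2.94e-05), while OLIG1 was detected on 0 arrays. The summed intensity of those 3 was 500 to 631 on EtOH arrays and 392 to 526 on retinoid arrays. The part of any other cell type in the values below was not tested, and in such bulk RNA fewer cells of a kind and less RNA per cell cannot be told apart.

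Start regions are shown for SERPINI1, SCRG1 and NRCAM, the 3 of the 6 genes whose sequence was used, because these genes were lower together while lying on chromosomes 3, 4 and 7. Each is the 250 bases before the gene start in RefSeq on GRCh38.p14, read along the gene's strand. Capitals mark the retinoid receptor half-site AGGTCA, its variants GGGTCA or AGTTCA or GGTTCA, and the E-box CAGCTG, searched on both strands. The E-box reads the same on both strands, and no match overlaps another.
SERPINI1, chr3:167735471-167735720, plus strand: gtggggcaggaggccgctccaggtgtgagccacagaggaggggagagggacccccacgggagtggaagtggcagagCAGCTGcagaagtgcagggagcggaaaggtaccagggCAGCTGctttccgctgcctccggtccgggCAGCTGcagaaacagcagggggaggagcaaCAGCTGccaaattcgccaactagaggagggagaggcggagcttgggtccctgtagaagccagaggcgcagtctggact
SCRG1, chr4:173399117-173399366, minus strand: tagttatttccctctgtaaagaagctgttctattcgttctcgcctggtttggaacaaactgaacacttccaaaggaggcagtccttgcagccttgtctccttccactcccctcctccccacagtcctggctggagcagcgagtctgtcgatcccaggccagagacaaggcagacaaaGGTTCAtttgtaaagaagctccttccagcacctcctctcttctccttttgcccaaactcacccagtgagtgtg
NRCAM, chr7:108456437-108456686, minus strand: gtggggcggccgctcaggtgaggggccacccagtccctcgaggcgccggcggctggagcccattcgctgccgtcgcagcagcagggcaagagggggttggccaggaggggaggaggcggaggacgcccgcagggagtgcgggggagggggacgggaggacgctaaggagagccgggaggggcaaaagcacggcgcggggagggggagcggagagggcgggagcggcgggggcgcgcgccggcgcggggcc

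The SERPINI1 region held 4 CAGCTG E-boxes, and 14% of 35116 such regions in the RefSeq table held at least 1. The share with 4 was not counted. The SCRG1 region held 1 half-site, GGTTCA, and 33.8% of the regions held at least 1 of the 4 half-sites. The NRCAM region shown is the one farthest upstream of 3 listed starts and held neither motif, while each of its other 2 held 1 half-site. Further motifs were searched: the E-box CACGTG or CATGTG (in 15.2% of regions), AP-1 TGACTCA (4.2%) and CRE TGACGTCA (1.65%). The regions shown held none of these. Of the other NRCAM starts, 1 held that E-box and the other held 1 AP-1 and 1 CRE match. A match is a run of letters and not a shown binding site.

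RIMS2 kept a signal above background in every group. Its probe ILMN_1665257 was detected on all 20 arrays. The normalized log2 intensity was 9.86 and 9.90 in the EtOH samples at 24 h and 9.87 and 9.61 at 48 h. With ATRA it was 7.95, 7.46 and 7.80 at 24 h and 8.25, 7.73 and 8.00 at 48 h. With 9-cis RA it was 7.66 and 7.76 at 24 h and 8.00 and 8.40 at 48 h. All 10 retinoid samples lay below all 4 EtOH samples, with a gap from 8.40 to 9.61. The fitted differences from EtOH were -2.14 ± 0.20 (ATRA, log2 ± SE) and -2.17 ± 0.21 (9-cis RA) at 24 h, and -1.75 ± 0.20 and -1.54 ± 0.21 at 48 h. The order of the group means was EtOH 24 h, EtOH 48 h, 9-cis RA 48 h, ATRA 48 h, ATRA 24 h, 9-cis RA 24 h, and within EtOH and within the retinoids neighbours in that order differed by less than the range of their samples.

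SYBU left the measurable range. Its probe ILMN_1738989 was detected on all 6 EtOH arrays and on 0 of 14 retinoid arrays. The EtOH samples were at 7.47 and 7.16 at 24 h and at 6.95 and 7.17 at 48 h on the log2 scale. All retinoid samples lay between 4.48 and 4.78, and no order among them can be read because none was detected. The raw intensity was 226 to 291 on the EtOH 24 h arrays and 200 to 325 on the EtOH 48 h arrays. On the retinoid arrays it was 106 to 135, below every EtOH array. Against the lowest detected signal of each array, SYBU was at least 2.64-fold lower with ATRA and at least 3.32-fold lower with 9-cis RA at 24 h, and at least 2.46-fold and 2.61-fold lower at 48 h. Here and below, a bound of this kind describes the group means measured and has no error of its own.

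**Figure D1:**
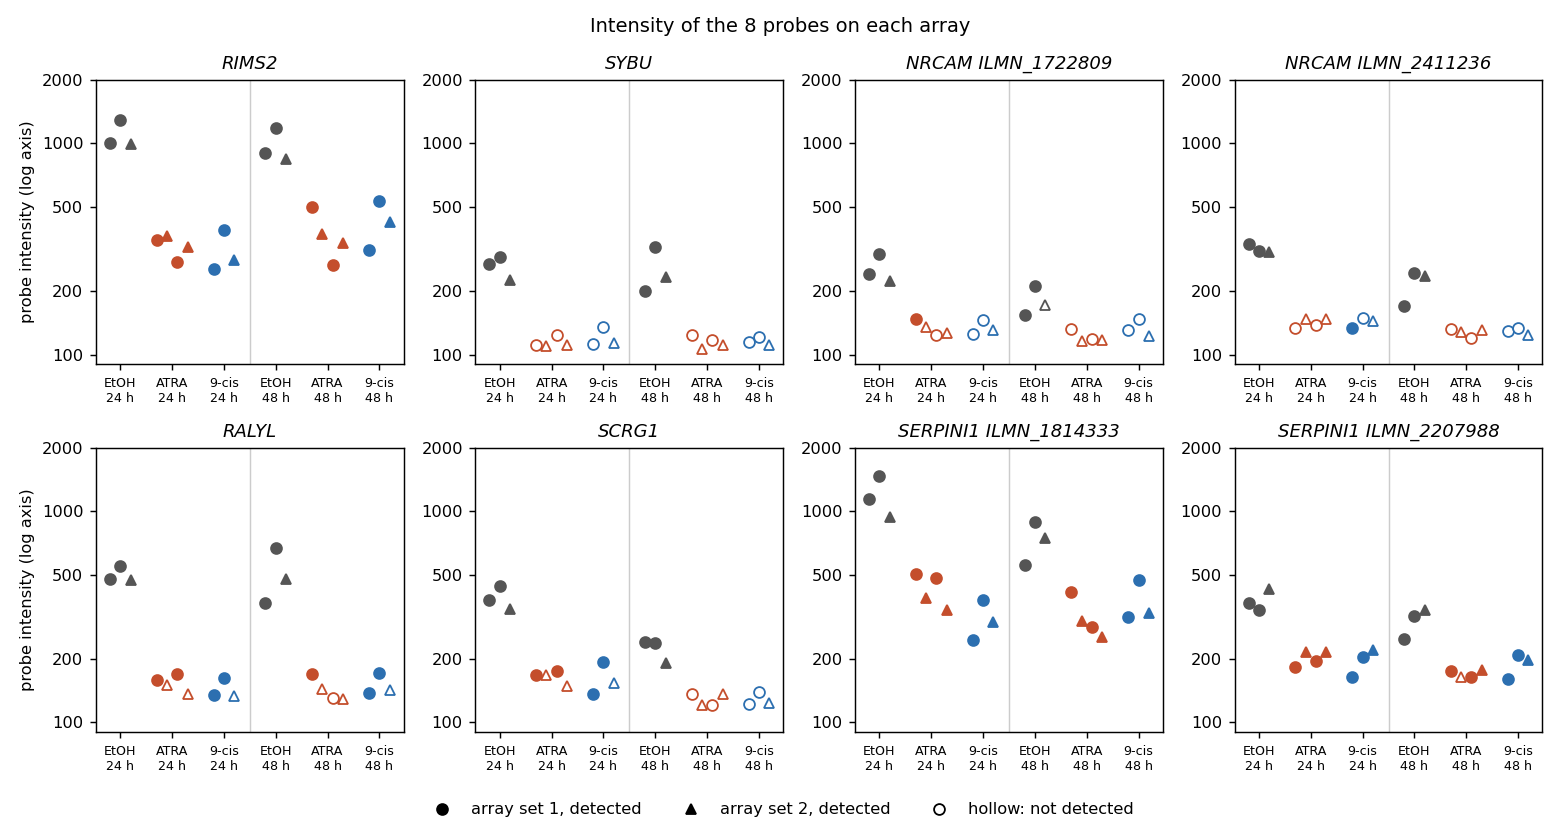
Raw probe intensity (log axis) of the 8 probes on each of the 20 arrays, by treatment and time; circles are arrays of set 1, triangles arrays of set 2, and hollow symbols arrays where the probe was not detected. RIMS2 and SERPINI1 ILMN_1814333 stay detected on all arrays, while every retinoid symbol of SYBU is hollow.

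NRCAM was high with EtOH at 24 h, lower with EtOH at 48 h and at background with the retinoids. By probe ILMN_2411236, EtOH samples were at 7.94 and 7.61 at 24 h and at 6.44 and 6.85 at 48 h. With ATRA the values were 5.14, 5.29 and 5.45 at 24 h and 4.91, 4.73 and 5.06 at 48 h. With 9-cis RA they were 5.67 and 5.45 at 24 h and 5.12 and 4.80 at 48 h. No retinoid sample reached the lowest EtOH sample, and the probe was detected on 6 of 6 EtOH and 1 of 14 retinoid arrays. The probe was at least 3.63-fold lower with ATRA and 4.20-fold lower with 9-cis RA at 24 h, and at least 1.85-fold and 1.96-fold lower at 48 h. The bounds of probe ILMN_1722809 were smaller, at least 2.42-fold and 3.04-fold at 24 h and at least 1.26-fold and 1.34-fold at 48 h. Probe ILMN_1722809 followed the same order, with EtOH samples at 7.17 to 7.21 at 24 h, 6.03 to 6.17 at 48 h and retinoid samples at 4.70 to 5.29. It was detected on 5 of 6 EtOH arrays and 1 of 14 retinoid arrays.

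RALYL was lower with both compounds at both times. Its probe ILMN_1716803 stood at 8.62 and 8.58 in the EtOH samples at 24 h and at 8.36 and 8.65 at 48 h. With ATRA it was 5.56, 6.14 and 5.14 at 24 h and 5.62, 5.24 and 5.01 at 48 h. With 9-cis RA it was 5.70 and 5.46 at 24 h and 5.49 and 5.51 at 48 h. The EtOH samples stayed within 0.28 of each other over both times, and the nearest retinoid sample, ATRA 24 h replicate 3, lay 2.22 below the lowest of them. The probe was detected on all 6 EtOH arrays. On retinoid arrays it was detected on 7 of 8 in set 1 and 0 of 6 in set 2, so whether RALYL counts as detected with a retinoid moved with the array set. The difference was -2.86 in set 1 and -3.36 in set 2 (log2, all retinoids minus EtOH), the latter from retinoid signals below detection. RALYL was chosen on these same arrays, so these values are a description and no check. RALYL was at least 5.40-fold lower at 24 h and 6.42-fold lower at 48 h with ATRA, and its fitted difference with 9-cis RA was -3.02 ± 0.28 and -3.01 ± 0.28.

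SCRG1 was lower with retinoids, and lower at 48 than at 24 h in each treatment. Its probe ILMN_1726204 was at 8.20 and 8.08 in the EtOH samples at 24 h and at 7.46 and 6.51 at 48 h, the widest gap between EtOH samples of 1 time among the 8 probes. The order of the group means was EtOH 24 h, EtOH 48 h, both retinoids at 24 h and both retinoids at 48 h, and the retinoids did not separate from each other at either time. With ATRA the values were 5.92, 6.26 and 5.48 at 24 h and 4.86, 4.79 and 5.25 at 48 h. With 9-cis RA they were 5.73 and 6.02 at 24 h and 4.79 and 4.88 at 48 h. The highest retinoid sample (6.26) lay just under the lowest EtOH sample (6.51), but these were from different times, and within each time the groups were far apart. It was detected on all 6 EtOH arrays, on 2 of 4 ATRA and 2 of 3 9-cis RA arrays at 24 h, and on 0 of 7 retinoid arrays at 48 h. Those 4 detected retinoid arrays were all in set 1. SCRG1 was at least 3.70-fold lower with ATRA at 24 h, at least 2.33-fold lower with ATRA at 48 h and at least 2.47-fold lower with 9-cis RA at 48 h.

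SERPINI1 was lower with retinoids but stayed detected. Its brighter probe ILMN_1814333 was at 10.06 and 9.95 in the EtOH samples at 24 h and at 9.10 and 9.29 at 48 h. With ATRA it was 8.35, 8.62 and 7.92 at 24 h and 7.85, 7.89 and 7.35 at 48 h. With 9-cis RA it was 7.57 and 7.81 at 24 h and 8.02 and 8.02 at 48 h. The retinoid samples lay below all EtOH samples, and the lowest group differed by time: 9-cis RA at 24 h and ATRA at 48 h. The fitted differences were -1.71 ± 0.21 (ATRA) and -2.31 ± 0.23 (9-cis RA) at 24 h and -1.50 ± 0.21 and -1.17 ± 0.23 at 48 h. The dimmer probe ILMN_2207988, detected on 19 of 20 arrays, gave differences from -1.50 to -1.25. This probe had EtOH samples at 7.54 to 8.14 and retinoid samples at 5.94 to 6.84.

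All 8 probes had every retinoid sample below every EtOH sample, as had 5.32% of all tested probes, and all 8 were lower by at least 1 on the log2 scale in each of the 4 comparisons, as were 62 probes or 0.339%. The genes were chosen on these comparisons, which share the EtOH samples at each time, so nothing is read from the counts. Over the 4 comparisons the median of the 32 differences was -2.15, and it was -1.11 without background correction and -0.80 in the authors' deposited normalized values. The size of the difference thus varied with the processing. All 856 values of single probes under the other settings were below 0. They come from the samples on which the genes were chosen, so nothing is read from their sign.

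**Figure D2:**
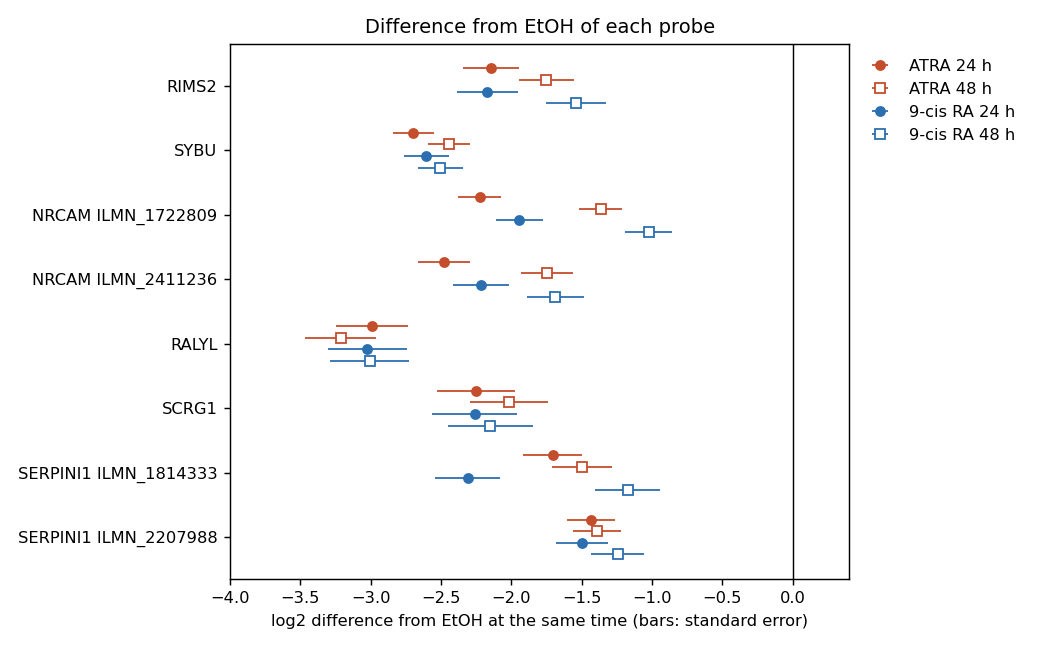
Log2 difference from EtOH at the same time for the 8 probes, with ATRA in red, 9-cis RA in blue, filled circles for 24 h and open squares for 48 h; bars are standard errors of the fit. All 32 points lie below 0, from -3.21 for RALYL with ATRA at 48 h to -1.02 for NRCAM ILMN_1722809. For SYBU and NRCAM, RALYL with ATRA, and SCRG1 with ATRA and with 9-cis RA at 48 h, the retinoid groups were near background. There only the bounds in the text hold.

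9-cis RA is a geometric isomer of ATRA, turned at a double bond of the side chain, and both were given at the same dose for the same times. No difference between them passed for any of the 8 probes at either time (limma, p adjusted over all 18269 probes), where 0.0109% of all probes passed at 24 h and 0.0164% at 48 h. An unadjusted p under 0.05 was reached by 1 of 8 probes at each time, beside 8.23% of all probes at 24 h and 4.28% at 48 h. At 24 h this was SERPINI1 ILMN_1814333, which was 0.60 higher with ATRA (95% interval 0.15 to 1.06, limma adjusted p = 0.563), with all 3 ATRA samples above both 9-cis RA samples. Its other probe gave 0.06 (-0.31 to 0.43, adjusted p = 0.941), so the probes did not show the same difference. In array set 1 alone the difference of ILMN_1814333 was 0.87 (limma adjusted p = 0.0319). Without replicate 4 of ATRA at both times it was 0.79 (adjusted p = 0.0373). Both settings leave out that replicate, which was in set 2, so they are not separate checks. At 48 h it was NRCAM ILMN_1722809, at -0.34 (-0.67 to -0.01, adjusted p = 0.96), in groups where the probe was not detected.

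For RIMS2, RALYL and SCRG1 the intervals of the difference between the compounds include 0 and run to both sides of it. RIMS2 differed by 0.03 at 24 h (-0.40 to 0.45, limma adjusted p = 0.981) and by -0.21 at 48 h (-0.63 to 0.22, adjusted p = 0.96). RALYL differed by 0.03 (-0.52 to 0.59, adjusted p = 0.98) and -0.21 (-0.76 to 0.35, adjusted p = 0.96), the latter with the probe detected on 1 of 4 ATRA arrays, and SCRG1 at 24 h by 0.01 (-0.59 to 0.61, adjusted p = 0.995). These values do not show that the isomers act alike. For SYBU neither compound left a detected signal, and a difference between them was not detectable with these arrays.

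Between 24 and 48 h of EtOH alone, all 8 probes were lower at the later time. None passed the adjusted threshold in limma, where 0.00547% of all probes did. An unadjusted p under 0.05 was reached by 5 of 8, beside 5.11% of all probes. Those 5 were the probes of NRCAM, SCRG1 and SERPINI1. The genes were chosen on differences that use these same EtOH samples, so nothing is read from that count. NRCAM differed by -1.09 (95% interval -1.45 to -0.72, limma adjusted p = 0.117) and -1.13 (-1.57 to -0.69, adjusted p = 0.28) by its probes, about a 2.13-fold and 2.18-fold lower level. SCRG1 differed by -1.15 (-1.81 to -0.50, adjusted p = 0.715) and SERPINI1 by -0.81 and -0.52 (adjusted p = 0.783 and 0.909). RIMS2, SYBU and RALYL differed by -0.14, -0.25 and -0.10, with intervals that include 0. Without EtOH 48 h replicate 2-3, which leaves 1 EtOH sample at 48 h, the NRCAM probes differed by -1.15 and -1.33. With the array set in the model ILMN_2411236 passed at -1.09 (adjusted p = 0.0398). Within each set the NRCAM probes differed by -1.11 and -1.13 (set 1) and -0.96 and -0.75 (set 2). In set 2 this compares 1 array of each time, and each shares its title number with a set 1 array.

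Within the retinoid groups SCRG1 had the largest change with time. It differed by -0.92 between 48 and 24 h of ATRA (95% interval -1.46 to -0.38, limma adjusted p = 0.141) and by -1.04 with 9-cis RA (-1.70 to -0.39, adjusted p = 0.114), where the bound was at least 1.15-fold. None of the 8 probes passed, against 0.454% of all probes for ATRA and 0.432% for 9-cis RA. An unadjusted p under 0.05 was reached by 4 and 3 of the 8, beside 10.8% and 17.7% of all probes. The choice of the genes used these samples too, so nothing is read from those counts. With the array set in the model SCRG1 passed in both, at -0.93 (adjusted p = 0.035) and -1.05 (adjusted p = 0.0272), although the probe was not detected at 48 h and the fit there uses signals below detection. RIMS2 went the other way, by 0.49 with 9-cis RA (0.02 to 0.96, adjusted p = 0.257) and 0.26 with ATRA (-0.12 to 0.64, adjusted p = 0.683). SERPINI1 ILMN_1814333 was lower at 48 than at 24 h with ATRA by -0.60 and higher with 9-cis RA by 0.33. That difference of changes was -0.93 (-1.58 to -0.28, adjusted p = 0.541) and did not pass.

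**Figure D3:**
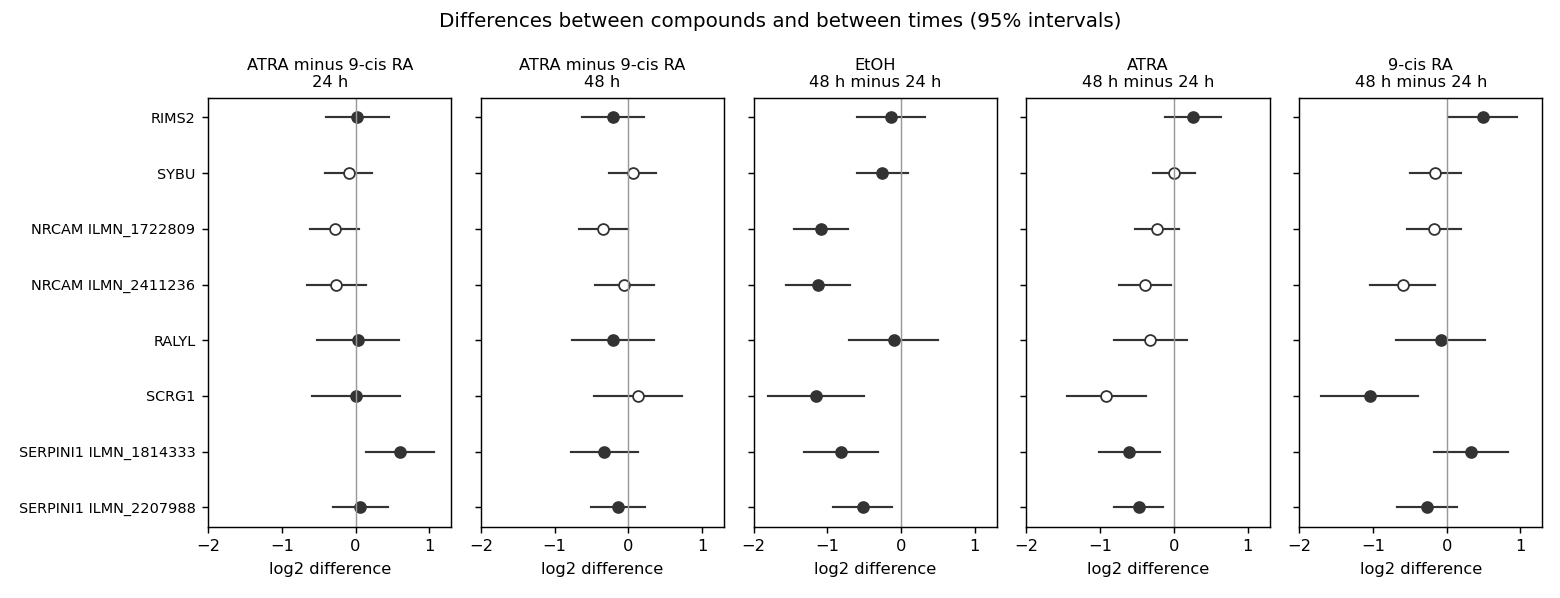
Log2 differences of the 8 probes between ATRA and 9-cis RA at each time and between 48 and 24 h within each treatment, with 95% intervals; hollow points mark differences between groups that were both detected on few of their arrays. No difference passed an adjusted p of 0.05, and the EtOH column shows NRCAM and SCRG1 near -1.1.

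Genes of the same pathways moved in both directions. From 8 lists of 186 neural genes, 110 had a named probe and 87 were tested for retinoids against EtOH over both times (limma, p adjusted over all 18269 probes). Of these 10 were lower (11.5%) and 19 higher (21.8%), beside 13.8% lower and 14.6% higher of all 10673 genes tested. The median difference was 0.03, against -0.00 over all genes. With arrays set to equal medians in place of equal quantiles, 10 were lower and 9 higher, and over all genes the share of calls that were higher went from 51.4% to 39.2%. There were 6 lower without either EtOH 24 h sample, and 10, 9 and 11 higher without EtOH 24 h replicate 1, EtOH 24 h replicate 2-3 and EtOH 48 h replicate 1.

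Among 19 tested genes of the active zone and vesicle release, the list nearest to RIMS2, 1 fell and 1 rose. RAB3A, the vesicle GTPase that RIM proteins bind, fell by 0.57 ± 0.18 (log2 ± SE, limma adjusted p = 0.0384), but its samples overlapped between the groups. It did not pass without background correction (adjusted p = 0.0568) or in the authors' deposited normalized values (adjusted p = 0.0675). RAB3A was detected on 5 of 6 EtOH and 6 of 14 retinoid arrays. Its bounds were at least 1.04-fold and 1.03-fold lower with ATRA at 24 and 48 h, and at least 1.58-fold lower with 9-cis RA at 24 h. SYT11, a synaptotagmin, rose by 1.08 ± 0.14 (adjusted p = 0.000192). It was detected on 1 of 6 EtOH and 11 of 14 retinoid arrays, and EtOH samples at 5.16 to 5.68 did not overlap retinoid samples at 5.76 to 6.96. At 48 h it was at least 1.82-fold higher with ATRA and at least 2.01-fold higher with 9-cis RA. At 24 h it was at least 1.69-fold higher with 9-cis RA, while ATRA and EtOH were both mostly not detected.

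In axonal transport, the process SYBU serves, 2 of 15 fell and 4 rose. KIF5B, a kinesin-1 heavy chain of the motor that syntabulin binds, rose by 0.97 ± 0.22 (limma adjusted p = 0.00853), with EtOH samples at 7.45 to 9.04 that overlapped the retinoid samples at 8.60 to 9.41. KIFAP3, a kinesin-2 subunit, rose by 0.43 ± 0.09 (adjusted p = 0.00549). The kinesin adaptors divided, with TRAK2 up by 0.30 ± 0.09 and TRAK1 down by 0.29 ± 0.09 (adjusted p = 0.0308 and 0.0304). With equal array medians TRAK1 and TRAK2 no longer passed, each in the same direction.

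Neural adhesion genes split 3 to 3 among 11 tested. CNTN1 (contactin 1), ALCAM and NCAM1, all adhesion molecules of the immunoglobulin family as NRCAM is, fell by 0.87 ± 0.12, 0.65 ± 0.12 and 0.52 ± 0.13 (limma adjusted p = 0.000235, 0.00272 and 0.0118). CNTN1 was detected on 4 of 6 EtOH and 1 of 14 retinoid arrays. It was at least 1.32-fold and 1.42-fold lower with ATRA and 9-cis RA at 48 h. At 24 h it was at least 1.16-fold lower with 9-cis RA, and no bound could be given with ATRA. ALCAM and NCAM1 samples overlapped between the groups. NCAM1 was detected on 4 of 6 EtOH and 4 of 14 retinoid arrays, so its fitted size rests on signals near background. PLXNA1, a semaphorin receptor, rose by 0.93 ± 0.13, PTPRZ1, a receptor phosphatase, by 0.63 ± 0.13 and SPTBN1, a spectrin, by 0.61 ± 0.18 (adjusted p = 0.00029, 0.00509 and 0.0279). SPTBN1 did not pass with equal array medians (adjusted p = 0.0942).

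For SERPINI1 the list held its target protease and other serpins, with 2 of 8 lower and 3 higher. SERPINE2 (protease nexin 1), another serpin that inhibits plasminogen activators, rose by 1.22 ± 0.10 (limma adjusted p = 5.24e-06). Its EtOH samples lay at 12.03 to 12.55 and its retinoid samples at 13.30 to 13.78. PLAT, which encodes tissue plasminogen activator, rose by 0.42 ± 0.12 (adjusted p = 0.0274), and SERPINF1, a serpin without protease inhibition, by 0.47 ± 0.12 (adjusted p = 0.0163). LRP8, a lipoprotein receptor of neurons, fell by 0.81 ± 0.10 and S100A10, a partner of annexin A2 in plasminogen binding, by 0.75 ± 0.10 (adjusted p = 0.00014 and 0.000187). Neither overlapped between EtOH and retinoid samples, and a further probe of each agreed in sign, at -0.84 and -0.66. PLAT and SERPINF1 did not pass with equal array medians (adjusted p = 0.138 and 0.056).

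The remaining lists held few calls that fell. Of 11 tested genes listed as REST and its corepressors, 5 rose and 0 fell. That is 45.5% higher, beside 14.6% higher and 13.8% lower of all genes tested. REST, which represses neuronal genes in other cells, had no tested probe itself. Whether these rises bear on the fall of the genes followed here was not tested. KDM1A, a histone demethylase, rose by 0.92 ± 0.12, CTDSP2, a phosphatase, by 0.51 ± 0.10, RCOR3, a corepressor, by 0.45 ± 0.13 and HDAC2 by 0.45 ± 0.15 (limma adjusted p = 0.000145, 0.003, 0.0212 and 0.0439). HDAC1, named after its value was seen, rose by 0.25 ± 0.08 (adjusted p = 0.0471). With equal array medians HDAC1 and HDAC2 did not pass (adjusted p = 0.66 and 0.196), and a further HDAC2 probe gave -0.23 (adjusted p = 0.189). Of 8 RNA-binding genes CELF1 rose by 0.42 ± 0.11 and KHDRBS3 fell by 0.31 ± 0.11 (adjusted p = 0.0131 and 0.0474). CELF1 did not pass with equal array medians (adjusted p = 0.0531), nor did its further probe, at 0.39 ± 0.15 (adjusted p = 0.0814). Of 5 genes of secretory granules and the SCRG1 receptor, VGF, a secreted neuropeptide precursor, rose by 0.54 ± 0.11 (limma adjusted p = 0.0036). ITGB1, the integrin beta 1 chain listed for that receptor, rose by 0.30 ± 0.10 (adjusted p = 0.0386). Both calls were lost with equal array medians. Of 10 genes of neuron structure only NLGN1, a postsynaptic adhesion molecule, passed, falling by 0.53 ± 0.10 (adjusted p = 0.00254).

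**Figure D4:**
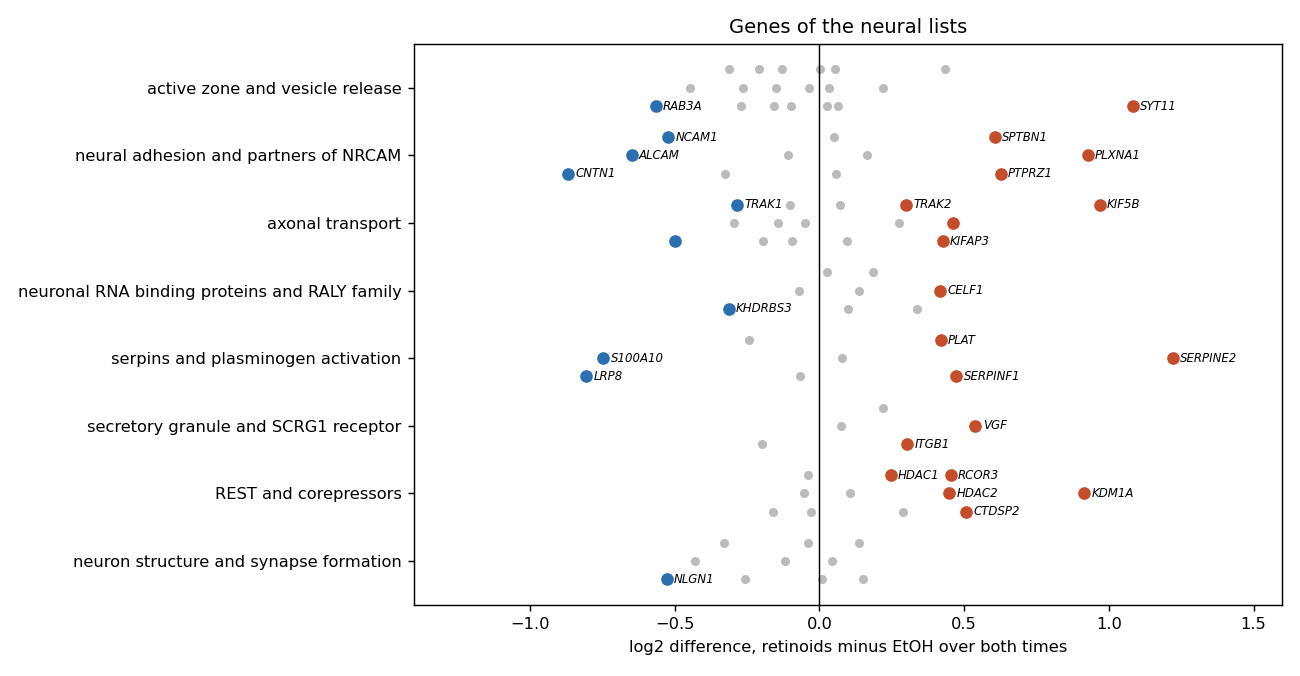
Log2 difference between retinoid and EtOH samples over both times for each tested gene of the 8 neural lists; blue points passed as lower, red points as higher, and grey points did not pass an adjusted p of 0.05. The 10 lower and 19 higher genes are spread over the lists, from -0.87 for CNTN1 to 1.22 for SERPINE2.

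The neighbours of the 6 genes along the chromosomes passed about as often as other genes, in both directions. Of the 5 nearest protein-coding genes on each side, 60 in all by RefSeq gene order, 37 were tested, and 5 were lower and 6 higher with retinoids (13.5% and 16.2%, beside 13.8% and 14.6% of all genes). The lower ones were CTHRC1 (-0.73 ± 0.10) near RIMS2, EBAG9 (-0.32 ± 0.09) near SYBU, SAP30 (-0.43 ± 0.11) and HAND2 (-0.48 ± 0.16) beside SCRG1, and PDCD10 (-0.34 ± 0.08) beside SERPINI1, with limma adjusted p from 0.000272 to 0.0495. The higher ones were SNX16 (0.67 ± 0.12) beside RALYL, HPGD (0.59 ± 0.16) near SCRG1, CBLL1 (0.46 ± 0.10) and DNAJB9 (0.43 ± 0.13) near NRCAM, and MECOM (0.41 ± 0.12) and BCHE (0.37 ± 0.10) near SERPINI1, with adjusted p from 0.00169 to 0.0266. With equal array medians 7 were lower and 2 higher, and CBLL1, DNAJB9, HPGD, BCHE and HAND2 no longer passed. MECOM and HAND2 did not pass without background correction (adjusted p = 0.0721 and 0.0649) or in the authors' deposited normalized values (0.0652 and 0.0706). MECOM was detected on 3 of 6 EtOH and 9 of 14 retinoid arrays, so its fitted size rests on signals near background. Without EtOH 24 h replicate 1 there were 2 lower, without EtOH 24 h replicate 2-3 there were 2 lower and 2 higher, and without EtOH 48 h replicate 1 there were 3 and 3. Without EtOH 48 h replicate 2-3 there were 11 higher.

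SCRG1 had a passing gene next to it on both sides, SAP30, a histone deacetylase complex subunit, and HAND2. HAND2, a neural crest transcription factor, was detected on 4 of 6 EtOH and 8 of 14 retinoid arrays and passed narrowly (adjusted p = 0.0495 in limma). PDCD10, a partner of the cerebral cavernous malformation proteins, starts 829 bases from SERPINI1 on the opposite strand. Its EtOH samples lay at 10.71 to 10.76 and its retinoid samples at 10.18 to 10.57, and its 3 other probes gave -0.47, -0.51 and -0.11. The differences of SERPINI1 over the same samples were -1.67 ± 0.14 and -1.39 ± 0.11 by its probes. EBAG9 had a further probe with a larger fall, at -1.04 ± 0.17 (limma adjusted p = 0.000948). Of the genes directly adjacent, those tested that did not pass were DCAF13 (-0.21), PNPLA8 (0.14), LRRCC1 (0.25) and GOLIM4 (-0.25). DCSTAMP beside RIMS2, KCNV1 and EBAG9UORF beside SYBU, and LAMB4 beside NRCAM were not tested.

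**Figure D5:**
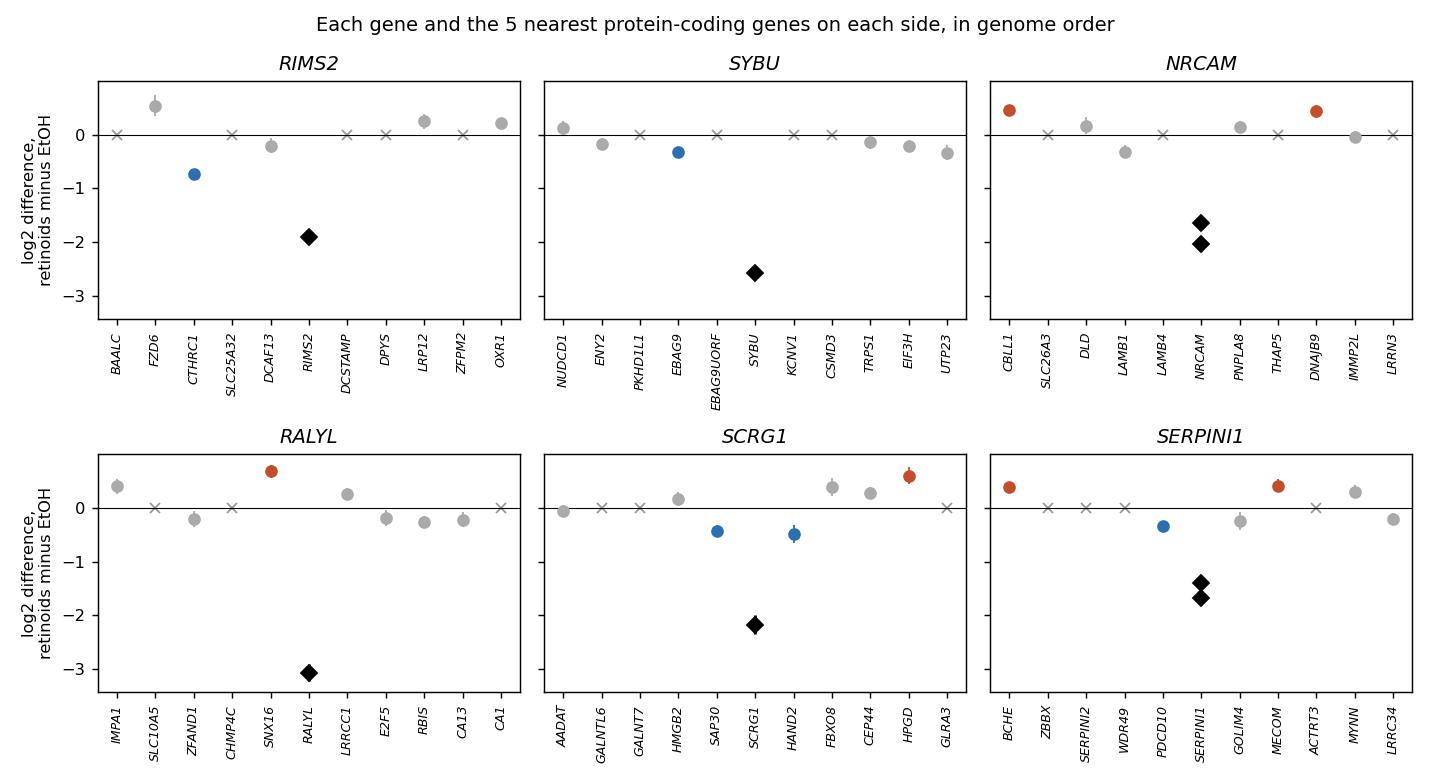
Log2 difference between retinoid and EtOH samples (± SE) of each of the 6 genes (black diamonds, 1 for each probe) and of the 5 nearest protein-coding genes on each side in genome order; blue and red points passed as lower and higher, grey points did not pass, and crosses are genes not tested. The black diamonds lie between -3.06 and -1.39, below every neighbour. The 6 genes were chosen for their fall in these samples and the neighbours were not, so nothing is read from that.

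The genes whose level over the 14 samples was most like the mean of the 6 genes were sought among all named genes, as a description. These correlations rest on samples shared by all genes, which form 2 clusters, EtOH and retinoid, so they mostly restate a difference between those. The closest was HSPB7, a small heat shock protein gene, with Pearson's r of 0.988 and a difference of -3.08 ± 0.11. It was detected on 6 of 6 EtOH and 3 of 14 retinoid arrays, so that size rests on retinoid signals near background. The difference was -1.57 without background correction and -1.17 in the authors' deposited normalized values. DUSP14, a phosphatase (r of 0.983), OLFML2A, an olfactomedin-like matrix protein (0.978), PFKFB2, a regulator of glycolysis (0.975), and FOXF2, a forkhead transcription factor (0.975), came next. They were followed by PHYHIPL, MOK, SLC7A8, PDLIM3 and DLX5, with r from 0.968 to 0.959. Of single genes, PCDH20, a protocadherin, was most like RIMS2 (0.954), TMEM47 most like NRCAM (0.968) and SNU13 most like SCRG1 (0.971). For SERPINI1 it was DUSP14 (0.971), and for SYBU and RALYL again HSPB7 (0.987 and 0.988). The next by likeness were COL9A1 and HSPB7 for RIMS2, FOXF2 and FGF9 for SYBU, and DUSP14 and PCDH7 for NRCAM. For RALYL they were OLFML2A and RGS2, for SCRG1 RPP40 and PDLIM3, and for SERPINI1 ESRP1 and SLC7A8, and all 12 had r from 0.943 to 0.987.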

How the data were processed

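RNA of 20 arrays was measured, and the authors deposited probe intensities (mean bead signals, which show neither background subtraction nor scaling) with a detection p-value each, in steps of 1 in 770. The authors' series matrix holds log2 values, with lumi named in the submitters' processing notes (version and normalization not given in the sources used here). Here the neqc function of limma 3.58.1 in R 4.3.3 (offset 16) did the background correction, quantile normalization and log2 step, and figures were drawn with matplotlib 3.10.9 in Python 3.11.15. Probes detected on at least 3 arrays were fitted in limma to 6 group means, with moderated variances (residual degrees of freedom 8, prior 4.38). P-values were adjusted over all 18269 tested probes by Benjamini and Hochberg, and 0.05 was the threshold. The brightest probe stood for a gene in list counts.

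The 6 genes and all lists were chosen with earlier results of these data known. Within lists, up to 4 passing genes with the lowest p in each direction are named, except for 2 genes of axonal transport that are not reported here. Of the neighbours, all passing ones and the nearest on each side are named. For likeness, the 3 highest correlations of each gene and the 10 highest of the mean were taken. Where a group was detected on no more than 50% of its arrays, a fold is a bound against the lowest detected signal of each array. The number of arrays limits the precision. On simulated data 200 probes were changed, 67 of them 2-fold. Of those 67, 95.5% were recovered between retinoids and EtOH, 67.2% between ATRA and 9-cis RA at 24 h and 44.8% between EtOH times. The simulated noise was independent, with no detection floor and no array sets, so these rates do not describe probes near background. Other settings covered normalization, filter, array sets and left-out samples.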

Additional observations from a re-analysis of the deposited data

How the results depend on the processing

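All 856 differences of single probes of the 6 genes from EtOH under the other settings were below 0, from -3.45 to -0.23. The genes were chosen for a fall in these same samples, so the shared sign is no check. The median difference from EtOH, -2.15, was -1.11 without background correction, -0.80 in the authors' series matrix values and -1.53 with an offset of 50. With 1 sample left out it was -2.19 to -2.05. A larger offset, and leaving the background in, compress low signals by construction. Of 1070 recomputed differences between compounds or times of single probes, 17 came to pass. Counting 20 arrays as independent, which counts repeat arrays as samples, 3, 1 and 3 of 8 probes passed for time in EtOH, ATRA and 9-cis RA. The array set as a term gave 1, 1 and 1. Set 1 alone gave 1 for ATRA against 9-cis RA at 24 h and 1 for time in 9-cis RA. Leaving out replicate 4 of ATRA at both times, which set 1 alone leaves out too, gave the same counts. Fitting only the groups compared gave 1 for time in 9-cis RA. Leaving out 1 sample gave 0 to 2 for time in EtOH and 0 in the other 4 comparisons. Leaving out an EtOH or 9-cis RA sample leaves 1 in its group, so those counts say little. The cause of these changes was not tested.

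The neural lists had 10 lower and 19 higher genes. Equal array medians gave 9 higher, set 2 alone 1 lower and 1 higher, and leaving out 1 sample 6 to 12 lower and 9 to 19 higher. The neighbours had 5 lower and 6 higher: 2 higher with equal array medians, 11 higher with 20 independent arrays, 0 and 0 in set 2 alone, and 2 to 7 lower and 2 to 11 higher with 1 sample left out. Set 2 alone has 1 array in each EtOH and 9-cis RA group, so it says little. No paired analysis was possible because nothing in the labels links any treated sample with a particular EtOH sample. Signal near background limits SYBU and NRCAM with retinoids, RALYL with ATRA, and SCRG1 with ATRA and with 9-cis RA at 48 h to bounds.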

Other observations

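The 6 genes were lower together, but their scatter within groups showed no common pattern. Over the 14 samples the 28 pairs of the 8 probes had Pearson's r from 0.784 to 0.983, which the separation of EtOH from retinoid samples sets. After each group's mean was taken off, r ran from -0.56 to 0.79 with a median of -0.07. The 2 probes of NRCAM gave 0.15 and those of SERPINI1 -0.26, where each NRCAM probe was detected on 1 of 14 retinoid arrays. These are descriptions over few samples that share arrays, array sets and depth.

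Some melanocyte markers were higher with retinoids. TYR, the first enzyme of melanin synthesis, SLC45A2, a melanosome transporter, MITF, the melanocyte master factor, and SOX10, a neural crest factor, were higher by 0.74 ± 0.10, 0.61 ± 0.09, 0.56 ± 0.10 and 0.41 ± 0.14 (log2 ± SE over both times, limma adjusted p = 0.000179, 0.000376, 0.00189 and 0.047). PMEL, MLANA, TYRP1 and GPR143 differed by -0.03, 0.17, 0.12 and -0.05 and did not pass. Of the markers of other cells, the fibroblast genes DCN and LUM and the leukocyte gene CD68 were higher by 1.29 ± 0.12, 1.03 ± 0.13 and 1.02 ± 0.10 (limma adjusted p = 1.32e-05, 0.000161 and 1.16e-05), where DCN was detected on 7 arrays, while COL1A1 was detected on 0 of 20 arrays and CD14 on 1.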
